A study of Mus musculus with 7 samples.

Results

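The genes described here are the 6 members of an arginine metabolism set, Nos2 (ENSMUSG00000020826), Arg1 (ENSMUSG00000019987), Arg2 (ENSMUSG00000021125), Slc7a2 (ENSMUSG00000031596), Ass1 (ENSMUSG00000076441) and Odc1 (ENSMUSG00000011179), taken by symbol from the 33696 genes of the count files. Their transcripts were counted as unique molecular identifiers (UMIs) in single cells of 7 mouse tumors, where each tumor was 1 library and the unit of replication. The tumors grew from JW23.3, a single Nf1- and Trp53-mutant line derived from a malignant peripheral nerve sheath tumor (MPNST). On day 0, 5000000 cells were placed under the flank skin of female wildtype C57/B6 mice aged 5 to 6 weeks, and tumors were taken on day 21. The irradiated group (n = 4) received 5 daily fractions of 2 Gy from day 7, and the control group (n = 3) was not irradiated. Tumor cells and the immune cells of the immunocompetent hosts shared each library.

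Slc7a2 encodes a cationic amino acid transporter that brings arginine into cells. Nos2, the inducible nitric oxide synthase, turns arginine into nitric oxide and citrulline and is known to be induced by interferon gamma and microbial products, and Ass1 starts the conversion of citrulline back to arginine. Arg1 in the cytosol and Arg2 in mitochondria split arginine into ornithine and urea, and Odc1 makes the polyamine putrescine from ornithine. Nos2 and Arg1 are the textbook markers of classically and alternatively activated mouse macrophages.

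Cells were grouped by marker UMIs, and no member was used in any gate. A myeloid score (summed UMIs of 12 genes, among them Lyz2, Csf1r and C1qa, per 10000) of at least 30 gave 13380 macrophage-gated cells, 995 to 3032 per tumor, and a score below 10 without Xist, Ptprc or other lineage markers gave 15243 tumor-gated cells. T and NK cell receptor genes gave 1094 T/NK-gated cells. The macrophage gate was split in order into a monocyte gate (Ly6c2, Ccr2 and Plac8 with low C1q, 540 cells), an Acp5 Atp6v0d2 gate (218 cells), a Chil3 Slfn4 gate (972 cells), an Mrc1 C1q gate (8842 cells), an Fcgr4 Ms4a7 gate without Mrc1 UMIs (1492 cells) and other macrophage-gated cells (1316 cells). A gate is a range of a score and not a cell type, and 890 macrophage-gated cells had a score of 30 to 60.

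Markers that the gates did not use separated the macrophage and tumor gates, and those of the monocyte list were divided. Adgre1, the F4/80 antigen, had a mean of 447 UMIs per 1000000 UMIs of the gate (CPM) in the macrophage gate and 1.25 CPM in the tumor gate, and Prrx1, a mesenchymal transcription factor, had 76.0 and 651 CPM. Sox10, which defines Schwann cells, stood at 0.039 CPM in the tumor gate and S100b at 18.1 CPM, so Sox10 was nearly absent from the cells of this nerve sheath tumor line. In the monocyte gate the neutrophil and monocyte gene Hp had 86.2 CPM, against 0.41 CPM in the Mrc1 C1q gate, and Vcan had 63.5 against 22.8 CPM. F13a1 went the other way, with 230 against 384 CPM, and so did Fn1, with 630 against 723 CPM. Vcan and Fn1 were also higher in the tumor gate (218 and 779 CPM) than in the whole macrophage gate (31.6 and 665 CPM). The libraries were divided into 2 technical sets by cell number, depth, mitochondrial share and stress transcripts. Of 63 possible divisions this one left the least spread within sets, at a fraction of 0.553 of the whole, and the next left 0.610. Set 1 held irradiated 1 and controls 2 and 3, and set 2 held irradiated 2 to 4 and control 1, so each set had 1 group of a single tumor. Median depth of macrophage-gated cells was 4010 to 5213 UMIs in set 1 and 9379 to 12090.5 UMIs in set 2, and 190 barcode sequences occurred in more than 1 library.

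Arg1, Arg2 and Odc1 were higher in macrophage-gated than in tumor-gated cells, and the test found no difference for Slc7a2 and Ass1. Arg1 stood at 27.0, 52.5, 109 and 189 CPM in macrophage-gated cells of irradiated tumors 1 to 4 and at 47.8, 40.9 and 34.4 CPM in controls 1 to 3. In tumor-gated cells Arg1 lay between 0.208 and 0.477 CPM in all 7 tumors. The ranges did not overlap, and the fold change was 7.92 ± 0.29 on the log2 scale (SE, n = 7; adjusted p = 8.4e-09, edgeR quasi-likelihood test with tumor as a block). Arg1 in the tumor gate was 0.246 to 0.998% of the macrophage level. Lyz2, a myeloid gene that is part of the gating score, was at 0.222 to 0.563%, and the share of Arg1 exceeded that of Lyz2 in 5 of 7 tumors. The tumor gate sets an upper limit on the score and so on Lyz2, but not on Arg1. Whether free RNA in the droplets gave this Arg1 was not tested.

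Arg2 was 5.01 ± 0.36 higher on the log2 scale in macrophage-gated cells (edgeR adjusted p = 9.8e-07), with 4.58 to 12.2 CPM against 0.164 to 0.613 CPM. Odc1 was 1.76 ± 0.34 higher (adjusted p = 0.00086), with 34.0 to 176 CPM against 27.8 to 55.8 CPM, and here the ranges overlapped. Slc7a2 (-0.36 ± 0.29, adjusted p = 0.269) and Ass1 (-0.34 ± 0.32, adjusted p = 0.334) did not pass. Ass1 had 40.3 to 78.0 CPM in the tumor gate and 73.5 to 181 CPM in T/NK-gated cells. Nos2 was too low in this comparison for the fit, with 108 UMIs in 58 macrophage-gated cells, 11 UMIs in 10 tumor-gated cells and 0 in T/NK-gated cells.

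A list of 42 arginine genes in 8 groups gave the wider pathway, of which 37 were tested between the macrophage and tumor gates. Of these, 19 were higher in the macrophage gate and 9 were lower, against 41.4% and 42.1% of the 15443 genes tested. The median log2 fold change of the list was 0.63, beside -0.018 over all genes. Slc7a7, which with Slc3a2 exports and exchanges arginine, was 4.91 ± 0.17 higher, and Gch1, which makes the nitric oxide synthase cofactor tetrahydrobiopterin, was 4.10 ± 0.15 higher. All 4 cofactor genes and 4 of 6 genes of polyamine breakdown and hypusine formation were higher, among them the spermine oxidase Smox (3.63 ± 0.15), the acetyltransferase Sat1 (3.32 ± 0.14) and the polyamine oxidase Paox (2.74 ± 0.09). Gatm, which starts creatine synthesis from arginine, was 3.95 ± 0.15 higher. The transporter Slc7a3 (-2.90 ± 0.44) and the proline enzyme Pycr1 (-2.21 ± 0.15) were lower. All of these passed an adjusted p of 0.05.

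**Figure D1:**
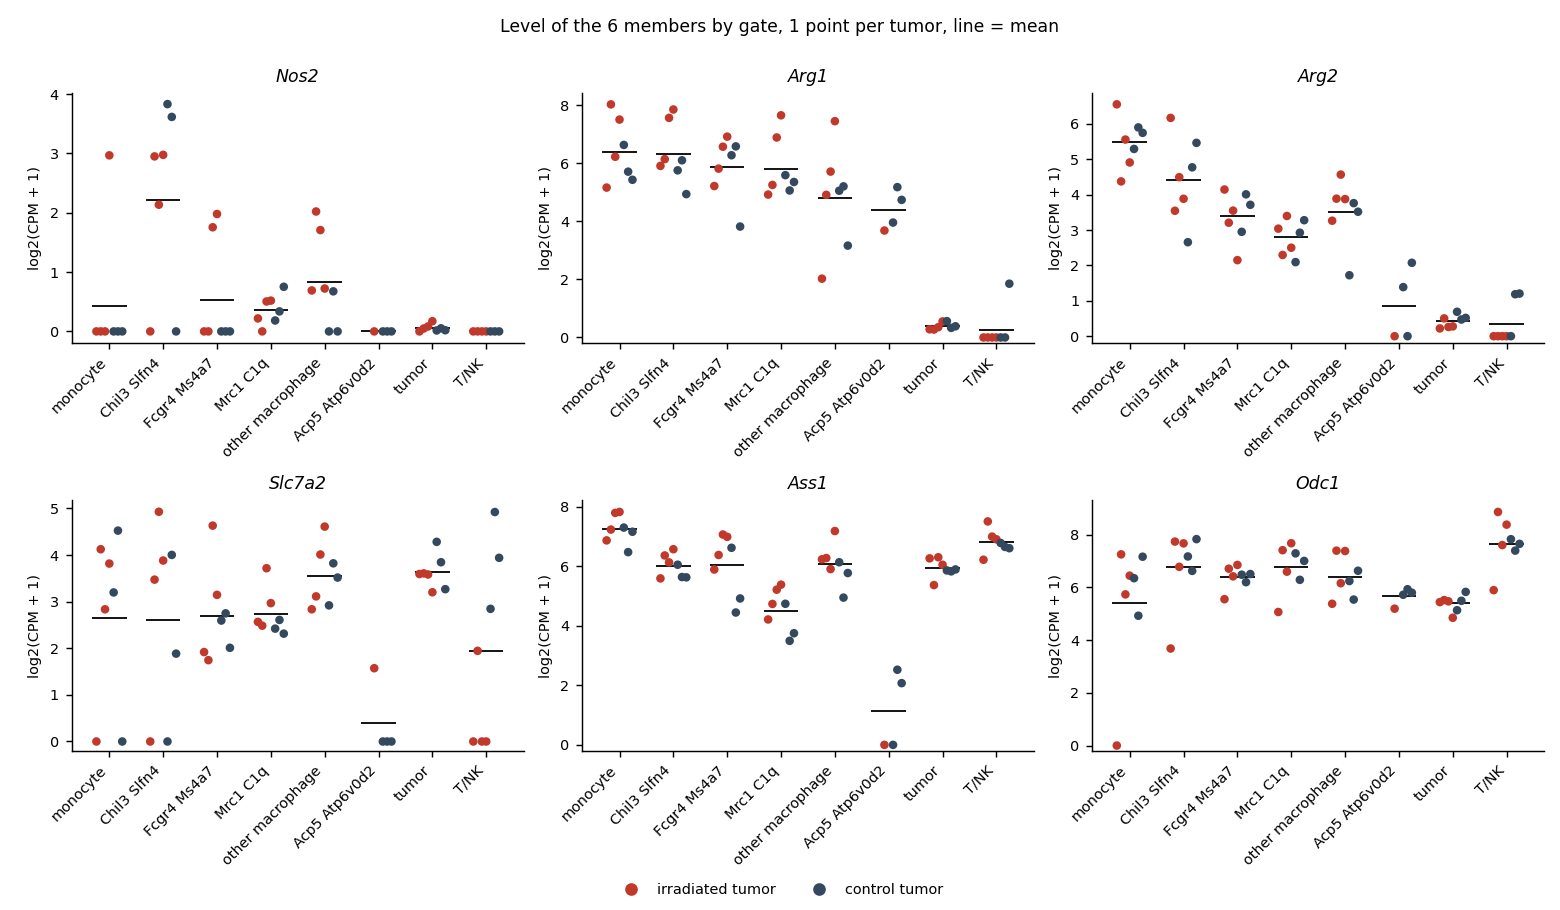
Level of each member as log2(CPM + 1) on the y axis in the 6 macrophage subsets, tumor-gated and T/NK-gated cells on the x axis, 1 point per tumor with at least 20 cells and a line at the mean. Arg1 and Arg2 lie near 0 in tumor-gated and T/NK-gated cells, Ass1 is lowest in the Acp5 Atp6v0d2 gate, and Nos2 is low everywhere.

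Within the macrophage gate, Arg2 and Ass1 were highest in the monocyte gate. Arg2 stood there at 92.8, 19.7, 46.0 and 29.0 CPM in irradiated tumors and 38.1, 58.7 and 52.6 CPM in controls, from 8 to 51 UMIs per tumor. In the Mrc1 C1q gate it lay between 3.27 and 9.53 CPM, below every monocyte value. The fold change was 2.90 ± 0.28 on the log2 scale (edgeR adjusted p = 4.7e-09). Ass1 stood at 116, 150, 221 and 226 CPM in the monocyte gate of irradiated tumors and 157, 88.0 and 142 CPM in controls. It lay between 10.3 and 40.7 CPM in the Mrc1 C1q gate and was 2.78 ± 0.14 higher in the monocyte gate (adjusted p = 4.6e-14). The granulocyte gene S100a8 was at 0 to 4055 CPM in the monocyte gate of the 7 tumors, and its part in these differences was not tested. Odc1 went the other way, with a log2 fold change of -0.67 ± 0.19 (adjusted p = 0.0167), and passed no longer without irradiated 3 (adjusted p = 0.0529). Arg1 (0.76 ± 0.51, adjusted p = 0.345) and Slc7a2 (0.85 ± 0.43, adjusted p = 0.152) did not pass.

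Of 35 listed genes tested between these gates, 6 were higher and 10 lower in the monocyte gate, against 15.1% and 12.9% of 11520 genes. Gch1 (1.25 ± 0.13) and Smox (0.79 ± 0.11) were higher. Of the 5 methylarginine and creatine genes 4 were lower, among them Gatm (-1.95 ± 0.18), Ddah2 (-1.57 ± 0.43), whose enzyme clears the nitric oxide synthase inhibitor dimethylarginine, and Gamt (-1.39 ± 0.27), which finishes creatine. Paox (-2.27 ± 0.28), the cofactor recycling gene Qdpr (-1.09 ± 0.23) and the ornithine aminotransferase Oat (-0.84 ± 0.17) were lower too.

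The Chil3 Slfn4 gate had more Arg1, Arg2 and Ass1 than the Mrc1 C1q gate. Arg1 stood at 59.1, 69.6, 188 and 230 CPM in irradiated tumors and 53.0, 67.6 and 29.6 CPM in controls, against 29.3, 37.1, 117 and 200 CPM and 47.2, 32.4 and 39.9 CPM in the Mrc1 C1q gate. Arg1 was higher in 6 of 7 tumors, the exception being control 3, and the fold change was 0.56 ± 0.13 (edgeR adjusted p = 0.0017). Arg2 was 1.82 ± 0.25 higher (adjusted p = 8.4e-07) and Ass1 1.49 ± 0.13 higher (adjusted p = 8.6e-11). Slc7a2 (0.82 ± 0.35, adjusted p = 0.078) and Odc1 (0.27 ± 0.11, adjusted p = 0.066) did not pass, and each passed when control 1 was left out (adjusted p = 0.0032 and 0.0285), Odc1 also without irradiated 1 (0.0298). Of 35 listed genes 7 were higher and 11 lower, against 15.8% and 15.4% of 11749 genes. Gch1 (1.24 ± 0.08) and Smox (0.76 ± 0.08) were again higher, and Ddah2 (-0.98 ± 0.27), Paox (-0.79 ± 0.15), Oat (-0.78 ± 0.12), Gamt (-0.72 ± 0.16) and the cofactor enzyme Spr (-0.60 ± 0.15) were lower. Both comparisons used the same Mrc1 C1q cells.

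The Acp5 Atp6v0d2 gate, named for osteoclast genes, had the least of most members. It reached 20 cells in 4 tumors only (irradiated 3 and the 3 controls), and the values rest on 21 to 93 cells each. Ass1 was at 0 UMIs in irradiated 3 and control 1 and at 4.75 and 3.21 CPM in controls 2 and 3. Slc7a2 (-3.95 ± 0.91), Ass1 (-2.82 ± 0.61), Arg2 (-2.58 ± 0.73) and Odc1 (-1.02 ± 0.19) were lower than in the Mrc1 C1q gate at edgeR adjusted p-values of 0.0014, 0.0027, 0.0074 and 0.00030. The folds of Slc7a2 and Ass1 depend on the prior count, since some sums were 0. Arg2 no longer passed without control 2 (adjusted p = 0.0731), and Arg1 (-1.05 ± 0.56, adjusted p = 0.206) passed without it (-1.70, adjusted p = 0.0097). Of 35 listed genes 11 were higher and 14 lower, against 20.3% and 25.5% of 11812 genes. Spermine synthase Sms (1.89 ± 0.17) and the proline-degrading Prodh (1.32 ± 0.44) were higher, and Smox (-2.73 ± 0.17), Gatm (-1.92 ± 0.22), Ddah2 (-1.86 ± 0.44), Paox (-1.82 ± 0.25) and Slc3a2 (-1.13 ± 0.13) were lower.

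The order of mean levels differed between members. Odc1 was highest in T/NK-gated cells, with 58.4 to 463 CPM, followed by the Chil3 Slfn4 and Mrc1 C1q gates. Slc7a2 had close means in other macrophage-gated cells (11.8 CPM), tumor-gated cells (11.7 CPM) and the Chil3 Slfn4 gate (10.1 CPM). Neighbors in the order were compared within tumors by a two-sided exact sign-flip permutation test over 42 pairs, and no pair passed after Benjamini-Hochberg adjustment (lowest adjusted p = 0.219). Over 42 pairs a single pair at its lowest possible p cannot pass, so the test says little about whether neighbors differ. That p is 0.125 for pairs with the Acp5 Atp6v0d2 gate, which rest on 4 tumors. With 7 tumors the lowest possible p is 0.0156, reached where 7 of 7 tumors agreed in direction. That held for Arg2 in the monocyte over the Chil3 Slfn4 gate (1.05 ± 0.77 on the log2 scale, SD), Slc7a2 in other macrophage-gated cells over the Mrc1 C1q gate (0.82 ± 0.53) and Ass1 in the tumor over the Mrc1 C1q gate (1.43 ± 0.72).

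Of the 6 members, 2 matched an entry of the promoter table used here, Ass1 and Odc1, both of which were higher in cycling than in other tumor cells, as described further on. The sequences shown are the 250 bases before the start of each gene from RefSeq (GRCm38.p6, plus strand), chr2:31470020-31470269 for Ass1 and chr12:17544623-17544872 for Odc1. Capitals mark matches to the letters searched.
Ass1: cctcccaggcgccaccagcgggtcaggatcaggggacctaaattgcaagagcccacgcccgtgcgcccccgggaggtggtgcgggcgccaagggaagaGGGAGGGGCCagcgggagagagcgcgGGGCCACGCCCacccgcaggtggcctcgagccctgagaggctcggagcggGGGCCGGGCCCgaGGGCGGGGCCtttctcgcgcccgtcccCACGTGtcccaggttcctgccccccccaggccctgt
Odc1: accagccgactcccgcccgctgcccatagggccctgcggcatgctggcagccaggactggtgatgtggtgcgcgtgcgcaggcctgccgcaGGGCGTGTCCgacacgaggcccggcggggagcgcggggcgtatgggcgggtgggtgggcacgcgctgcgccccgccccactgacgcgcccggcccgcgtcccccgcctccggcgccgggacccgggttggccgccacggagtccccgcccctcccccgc
Both windows are rich in G and C, at 75.6% in Ass1 and 80.0% in Odc1. The letters searched on both strands were TATAAA, the kappa B pattern (3 G, then any 5 bases, then 2 C), TTCNNNGAA, the interferon response pattern (a G and 3 A, then any 2 bases, then a G and 3 A), TTGCNNAA, TGANTCA and ACGTG (the core of the hypoxia response element). Ass1 held 6 partly overlapping matches to the kappa B pattern and ACGTG on both strands, within 1 palindrome. Odc1 held 1 match to the kappa B pattern. The kappa B pattern occurs in 45.8% and ACGTG in 16.6% of 32851 promoter windows, and the shares for TATAAA, TTCNNNGAA, the interferon response pattern, TTGCNNAA and TGANTCA are 12.4%, 7.02%, 2.98%, 9.56% and 6.75%. A match is a description of letters only. The other members are Nos2, Arg1, Arg2 and Slc7a2.

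Whether RT moved the members was asked first in the whole macrophage gate. None of the 6 members differed between irradiated and control tumors after adjustment, and neither did any of the 14355 genes tested (0%, edgeR; 878 genes at an unadjusted p under 0.05; DESeq2 called 3 genes, with 1031 under 0.05). Left-out tumors moved the number at an unadjusted p under 0.05 from 268 without control 2 to 3304 without irradiated 1, it was 437 without irradiated 4, 481 without irradiated 2 and 510 without control 3, and no gene passed in any of these fits. Nos2 stood at 0.200, 1.09, 0.894 and 2.52 CPM in irradiated tumors and 0.794, 0.426 and 0.532 CPM in controls, from 3 to 45 UMIs per tumor. Ass1 stood at 26.4, 45.1, 49.7 and 86.7 CPM against 41.7, 14.4 and 19.5 CPM. For Nos2, Arg1 and Ass1, irradiated 2 to 4, the irradiated tumors of technical set 2, exceeded every control and irradiated 1 did not. The share of all genes with this pattern was not computed. Slc7a2 stood at 4.81, 5.85, 13.8 and 10.1 CPM against 4.48, 5.96 and 4.42 CPM, and only irradiated 3 and 4 exceeded every control. The make-up of the gate moved with these levels. Monocyte-gated cells were 0.996, 6.53, 3.64 and 14.3% of macrophage-gated cells in irradiated tumors and 5.38, 1.35 and 1.84% in controls, and Chil3 Slfn4 cells were 1.65, 17.1, 9.78 and 22.2% against 8.21, 2.70 and 2.82%. Values within subsets, which do not carry the difference in these shares, follow further on. Cells gated by Cxcl9, also described further on, are not one of these subsets. They were 4.59, 5.43, 8.05 and 17.8% of macrophage-gated cells in irradiated tumors and 6.41, 2.57 and 2.24% in controls. Their part in the values within subsets was not tested. No member separated the groups, which 2.74% of genes did upward and 3.11% downward.

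The log2 fold changes were 1.25 ± 0.62 for Arg1, 1.09 ± 0.49 for Ass1, 1.06 ± 0.72 for Nos2, 0.83 ± 0.38 for Slc7a2, 0.28 ± 0.31 for Arg2 and 0.15 ± 0.54 for Odc1 (SE), with edgeR adjusted p-values of 0.679 to 0.934. Within set 1, the difference in log2(CPM + 1) was -0.46 for Arg1, -0.08 for Slc7a2, -0.30 for Nos2 and 0.63 for Ass1. Within set 2 it was 1.09, 0.92, 0.42 and 0.46. For Arg1, Slc7a2 and Nos2 the sign differed between the sets, each of which rests on 1 tumor in one group and has no test of its own. With a term for the technical set, fold changes were 0.50 for Arg1, 0.61 for Ass1, 0.26 for Nos2 and 0.59 for Slc7a2, and none passed. Without irradiated 4, Arg1 came to 0.62 and Nos2 to 0.29. Without irradiated 1, Arg1 came to 1.56 (adjusted p = 0.121) and Nos2 to 1.42 (adjusted p = 0.158).

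**Figure D2:**
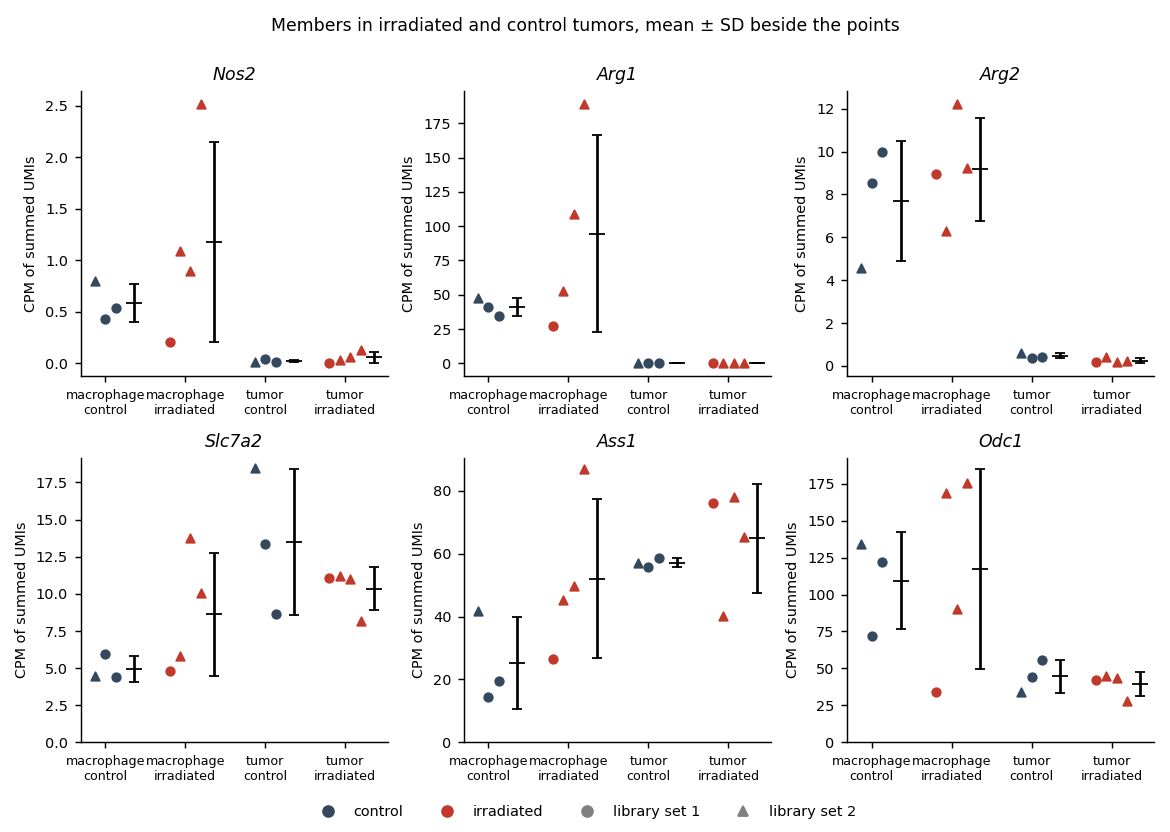
CPM of each member on the y axis in macrophage-gated and tumor-gated cells of control and irradiated tumors, 1 point per tumor (circles, technical set 1; triangles, set 2) with the mean and SD beside them. Irradiated 4 is the highest point for Arg1, Ass1 and Nos2 in the macrophage gate, and irradiated 1 lies among or below the controls.

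Tumor-cell transcripts in the macrophage gate moved with these values. The summed level of the 6 MPNST markers in the macrophage gate was 19.3, 7.12, 7.28 and 2.90% of its tumor-gate level in irradiated tumors and 16.2, 13.9 and 14.8% in controls. At those shares the tumor gate's Ass1 would come to 14.6, 2.87, 5.68 and 1.89 CPM in irradiated tumors and 9.26, 7.78 and 8.67 CPM in controls, and Arg1 to at most 0.077 CPM. The part of these transcripts in the differences was not tested.

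In tumor-gated cells no member passed either, and no gene of 17324 did (0%, edgeR; 232 at an unadjusted p under 0.05; DESeq2 0, with 252). The number at an unadjusted p under 0.05 came to 911 without control 1, 501 without irradiated 1, 389 without irradiated 2 and 370 without control 3, with no gene passing. Arg2 had a log2 fold change of -1.07 ± 0.38 (edgeR adjusted p = 1.00), at 0.164 to 0.417 CPM against 0.386 to 0.613 CPM. Arg1 had -0.39 ± 0.36, Slc7a2 -0.42 ± 0.22, Ass1 0.10 ± 0.22 and Odc1 -0.27 ± 0.26. No member separated the groups, which 1.36% of genes did upward and 0.929% downward. The irradiation effect was compared between the gates by an interaction term, which no gene of 15443 passed (0%; 832 at an unadjusted p under 0.05). The differences in log2 fold change, macrophage minus tumor gate, were 1.25 ± 0.42 for Arg1, 1.42 ± 0.55 for Arg2, 1.11 ± 0.46 for Slc7a2 and 1.00 ± 0.56 for Ass1 (SE), with edgeR adjusted p-values of 0.813 to 0.820.

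None of the 37 listed pathway genes tested in the macrophage gate, 38 in the tumor gate or 37 for the interaction passed. Beyond members, the folds furthest from 0 were those of Gch1 in the macrophage gate (0.56 ± 0.32), of Ddah1 (-0.52 ± 0.36) and the endothelial synthase gene Nos3 (-0.39 ± 0.35) in the tumor gate, and of Ddah2 for the interaction (-0.46 ± 0.24).

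Within subsets, 30 member and subset pairs were compared by exact permutation over the 35 splits of 4 against 3 tumors, and none passed (lowest p = 0.114, adjusted p at least 0.857, where 0.0286 is the lowest p possible). A single pair at 0.0286 could not pass over 30 pairs either. The lowest p found was for Nos2 in other macrophage-gated cells, where irradiated tumors had 0.614, 3.06, 2.27 and 0.650 CPM and controls 0, 0.597 and 0 CPM. All 4 irradiated values lay above the controls, but they rest on 1 to 3 UMIs each. The share of all genes that separate the groups in this subset was not computed, so this is a description only. Ass1 in the Mrc1 C1q gate was at 17.6, 25.6, 36.1 and 40.7 CPM in irradiated tumors against 25.7, 10.3 and 12.5 CPM (exact p = 0.143). Its difference in log2(CPM + 1) was above 0 in all 5 subsets compared, from 0.39 to 1.25. Within technical set 1 the Ass1 difference in the Chil3 Slfn4 gate was -0.04. Differences of Arg1 (0.55 to 1.27) and Slc7a2 (0.12 to 1.11) were above 0 in all 5 subsets as well. The subsets come from the same tumors and do not repeat each other independently. Arg1 in the Chil3 Slfn4 gate differed by 1.27 (exact p = 0.171), with irradiated 2 to 4 higher than every control. How many genes of that gate show this pattern was not computed.

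Per cell, Nos2 was rare and Arg1 common, in UMI counts that do not scale with transcript length. To compare tumors at equal depth, each cell was thinned to 3000 UMIs, which left out 3170 of 13380 macrophage-gated cells (1220 of 6133 irradiated and 1950 of 7247 control). A Nos2 UMI was then found in 19 of 10210 cells (0.186%) and an Arg1 UMI in 1214 (11.9%). Before thinning the counts were 58 (0.433%) and 2417 (18.1%). The background was 4 of 14282 tumor-gated cells (0.028%) for Nos2 and 19 (0.133%) for Arg1, and 0 of 711 T/NK-gated cells for both, which allows a share of up to 0.422%. Median depth before thinning was 13428.5 to 28907 UMIs in tumor-gated and 2409.5 to 5740 UMIs in T/NK-gated cells. The Nos2 share of macrophages thus lay above the tumor-gate share but under the limit that the T/NK count allows. Odc1 was found in 21.1%, Ass1 in 8.02%, Arg2 in 2.52% and Slc7a2 in 1.26% of thinned macrophage-gated cells, beside 36.3%, 25.2%, 0.141% and 0.563% of T/NK-gated cells.

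The thinned Arg1 share was 5.97, 9.99, 17.7 and 28.1% in irradiated tumors 1 to 4 and 10.5, 8.20 and 7.57% in controls 1 to 3. The means were 15.4% ± 9.75 (SD, n = 4) and 8.74% ± 1.52 (n = 3), and a two-sided exact permutation test gave p = 0.343 (adjusted over 3 shares 0.514). Only irradiated 3 and 4 lay above all controls. The difference was -1.91 percentage points within set 1 and 8.14 within set 2. For Nos2, 1, 1, 4 and 10 cells in irradiated tumors and 1 cell in each control had a UMI, giving 0.318% ± 0.294 and 0.059% ± 0.015 (exact p = 0.200, adjusted 0.514). Cells with both had shares of 0.077% and 0.025% (exact p = 0.543, adjusted 0.543).

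**Figure D3:**
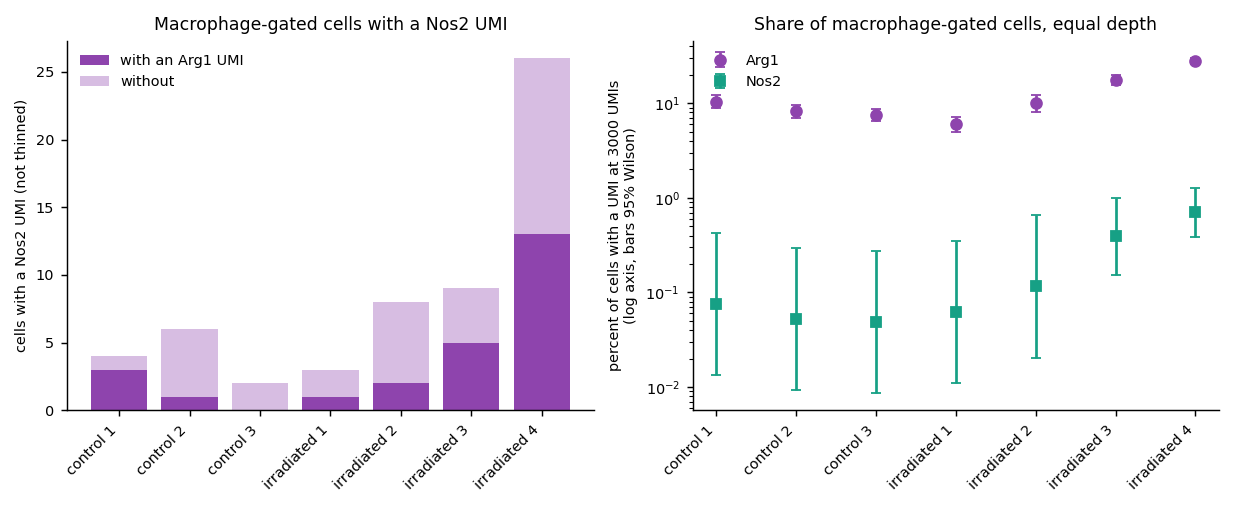
Left, macrophage-gated cells with a Nos2 UMI per tumor before thinning, split by whether the cell also had an Arg1 UMI. Right, the share of thinned cells with an Arg1 or a Nos2 UMI per tumor on a log axis with 95% Wilson intervals, which cover counting error only; Arg1 runs from 5.97 to 28.1%.

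Some cells held both Nos2 and Arg1. Before thinning, 25 of the 58 Nos2 cells (43.1%) also had an Arg1 UMI, against 18.0% of the other macrophage-gated cells. If both were independent within each tumor, 17.5 such cells would be expected, and 16.3 if independent within tumor and subset. At equal depth 5 of 19 Nos2 cells (26.3%) had Arg1, against 11.9% of others, with 3.94 and 3.98 expected. The direction differed between settings, in which the thinning draw changed along with the cells kept. With strict gates 2 of 20 Nos2 cells (10.0%) had Arg1 against 11.6% of others (3.74 expected), and without the cell filter 2 of 14 (2.75 expected). Thinned to 2000 UMIs per cell, 8 of 24 had Arg1 (3.44 expected), and at 5000 UMIs 10 of 26 (5.86 expected). These counts are sparse and are given as a description.

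A few cells carried much of the Nos2. The 8 cells with at least 3 Nos2 UMIs held 52 of the 108 UMIs, and 4 of them had Arg1. In control 1, 14 of 17 UMIs came from 1 cell, and in control 3, 8 of 10. The Chil3 Slfn4 gate held 24 of the 58 Nos2 cells (41.4%) while it was 7.26% of macrophage-gated cells, and the Mrc1 C1q gate held 15. At equal depth the Chil3 Slfn4 gate held 7 of 19. Nos2 CPM in the Chil3 Slfn4 gate was 0, 6.73, 3.40 and 6.87 in irradiated tumors and 13.2, 11.3 and 0 in controls, and the groups overlapped.

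Many cells with Nos2 held interferon-induced transcripts. Of the 58 Nos2 cells 20 (34.5%) were in the Cxcl9 gate (Cxcl9 of at least 1 per 10000), which took 5.86% of macrophage-gated cells. Irradiated 4 gave 26 of the 58 and 12 of the 20, and the gate took 17.8% of its macrophage-gated cells. By tumor the share of Nos2 cells in the Cxcl9 gate exceeded that of all macrophage-gated cells in 5 of 7, and it was 0 of 3 cells in irradiated 1 and 0 of 2 in control 3. Of the 19 thinned Nos2 cells, Cxcl10, a T cell attracting chemokine, was in 57.9%, against 24.3% of other cells of the same tumors. The interferon-induced GTPases Igtp (42.1% against 8.98%), Iigp1 (42.1% against 15.5%) and Gbp4 (21.1% against 3.77%) and the checkpoint ligand Cd274 (52.6% against 24.5%) were found more often as well. Ciita, of the same interferon list, was found in 0% against 2.55%. The mannose receptor gene Mrc1 was found in 36.8% against 56.6% and Selenop in 36.8% against 58.3%. Of the hypoxia genes, Bnip3 (31.6% against 15.7%), Hk2 (31.6% against 15.7%) and Ndrg1 (21.1% against 8.37%) had higher shares in Nos2 cells, and Ldha (36.8% against 60.5%) and Slc2a1 (10.5% against 20.7%) had lower ones. Only 19 cells stand behind these shares, 10 of them from irradiated 4, and they carry no test. By the median over tumors of the log2 difference, 2 of 12 interferon gamma induced genes were above 0 in Nos2 cells (list median -1.14). Over 8007 genes of at least 10 CPM that median was -1.79, with 7.42% above 0.

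The same lists were read in Arg1 cells, by the log2 difference and not by shares of cells. Arg1 cells were not compared with Nos2 cells by a test. Thinned macrophage-gated cells with an Arg1 UMI (86 to 401 per tumor) were compared with those without, in the same tumor. All 10 genes of a hypoxia list had a median difference above 0, with a list median of 0.46 on the log2 scale. Over the 8006 genes of at least 10 CPM the median was -0.039, and 41.4% were above 0. In these comparisons all genes are those of at least 10 CPM, a cut that listed genes did not have to pass. Of the 10 hypoxia genes, 6 were higher in 7 of 7 tumors, against 3.17% of all genes. These were Bnip3 (0.89), Vegfa (0.73), Pgk1 (0.70), Egln3 (0.64), Ldha (0.47) and Ero1a (0.45), which serve mitophagy, vessel growth, glycolysis, oxygen sensing and oxidative protein folding. Within the Mrc1 C1q gate alone, 9 of 10 were above 0 (median 0.49) and 4 were higher in 7 of 7 tumors, against 2.95% of genes. Those 4 were Bnip3 (1.10), Vegfa (0.70), Pgk1 (0.64) and Ldha (0.50).

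Of 12 interferon gamma induced genes, 1 was above 0 in Arg1 cells (list median -0.24). Ciita, the master regulator of MHC class II (-0.86), and Iigp1 (-0.36) were lower in 7 of 7 tumors, against 6.65% of all genes. Irf1 (-0.49) and Cxcl9 (-0.44) had medians below 0 but not in every tumor. The inflammatory list was divided, with Il1b lower in 7 of 7 tumors (-0.48), Ccl3 at -0.48 and Cxcl2 at 0.47. Among alternative activation genes, the folate receptor gene Folr2 was higher in 7 of 7 tumors (0.63), the lectin gene Mgl2 lower in 7 of 7 (-1.11), and Cbr2 at 0.54. The rest of both lists had differences of mixed sign.

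**Figure D4:**
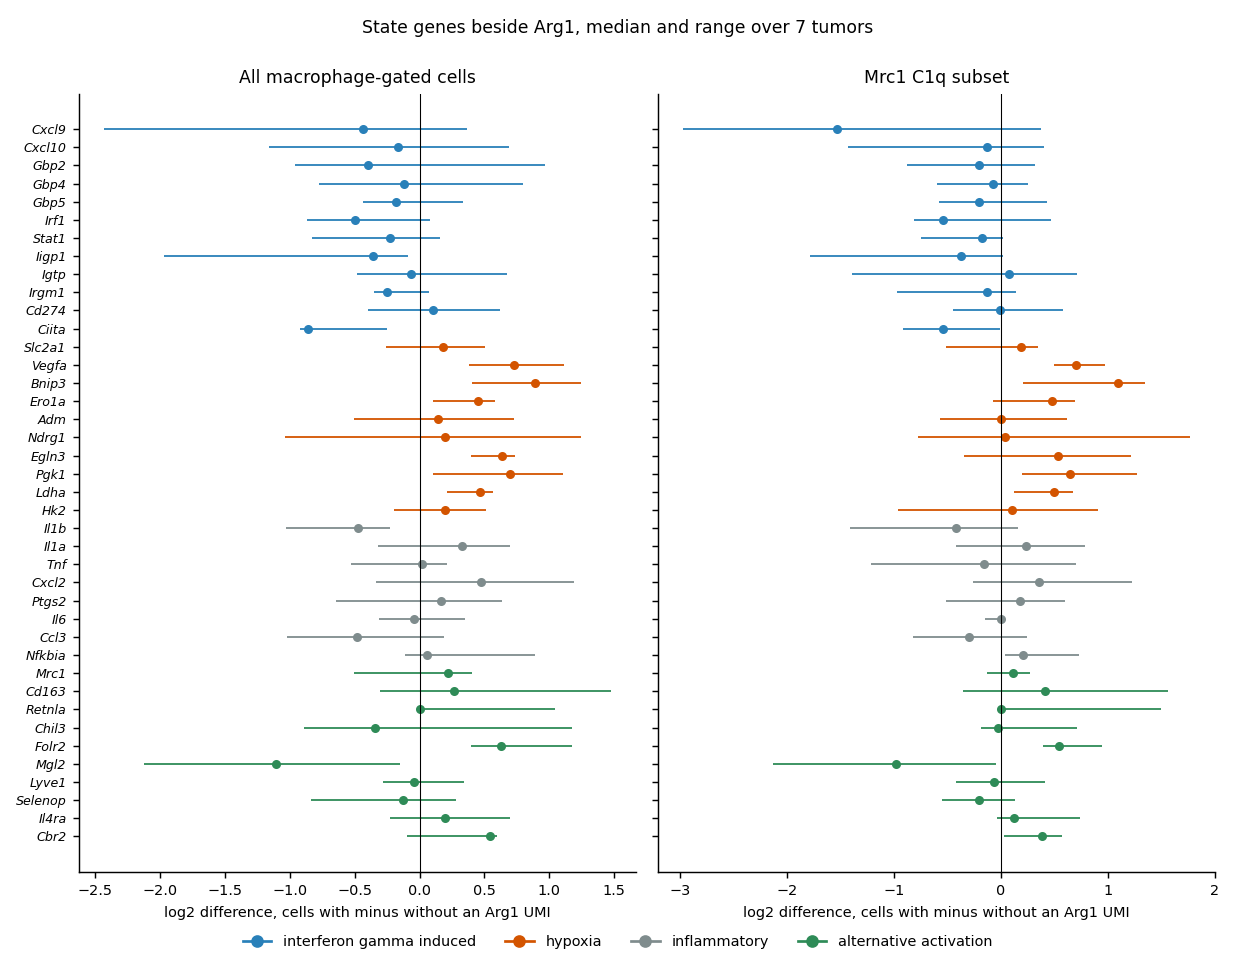
Log2 difference on the x axis between thinned cells with and without an Arg1 UMI for the genes of 4 state lists on the y axis, in all macrophage-gated cells (left) and in the Mrc1 C1q gate (right). Points are medians and lines ranges over 7 tumors, and Bnip3, Vegfa, Pgk1 and Ldha lie above 0 in every tumor in both panels.

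Ass1 cells were read by the same lists. In all macrophage-gated cells, 11 of 12 interferon gamma induced genes were above 0 beside an Ass1 UMI (list median 0.65), and 7 were higher in 7 of 7 tumors, against 5.65% of all genes, with Cxcl10 at 1.18 and Gbp2 at 1.02. Within the Mrc1 C1q gate this came to 6 of 12 (median 0.059), with 3 higher in 7 of 7 tumors, against 2.11%. Of the alternative activation list, 4 genes (Mrc1, Folr2, Selenop and Cbr2) were lower in 7 of 7 tumors in both settings, against 6.36% and 3.06% of all genes. Chil3, a gene of the same list and of the Chil3 Slfn4 gate, was higher in 7 of 7 tumors in all macrophage-gated cells (1.72). Within the Mrc1 C1q gate it stood at -0.11, but the earlier Chil3 Slfn4 gate had already taken out cells high in Chil3. Mrc1 is likewise a gate gene, and Ass1 was lower in the Mrc1 C1q gate than in the monocyte and Chil3 Slfn4 gates. Over all macrophage-gated cells, the lower Mrc1 beside Ass1 is therefore not a separate result. Odc1 cells had 2 of 12 interferon genes above 0, with 4 lower in 7 of 7 tumors, against 4.12% of genes, and Vegfa higher in 7 of 7 (0.60).

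The same contrast was made over cells gated by Cxcl9, within tumors and by an exact sign-flip permutation test with adjustment over 18 comparisons, which were chosen after the data had been seen. Ass1 stood at 46.6, 87.9, 87.5 and 127 CPM in Cxcl9-gated cells of irradiated tumors and 81.0, 29.9 and 55.9 CPM in those of controls. In the other macrophage-gated cells it was at 25.3, 42.6, 46.2 and 77.5 CPM and 38.6, 13.9 and 18.7 CPM. Ass1 was higher in Cxcl9-gated cells in 7 of 7 tumors, by 1.02 ± 0.26 in log2(CPM + 1) (SD; exact p = 0.0156, adjusted 0.0402). Odc1 was lower in 7 of 7 (-0.35 ± 0.17, adjusted p = 0.0402). Arg1 was lower in 6 of 7 (-0.89 ± 0.82, exact p = 0.0313, adjusted 0.0703), and Nos2 was higher in 5 of 7 (0.94 ± 1.31, exact p = 0.109, adjusted 0.164). Arg1 and Nos2 did not pass. Cxcl9-gated cells were deeper, at 10796 UMIs per cell against 8519, and the comparison pooled all subsets. The part of depth and of subset make-up was not tested.

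Cycling tumor cells had more Ass1 and Odc1 and less Slc7a2 than other tumor cells. Cycling cells had at least 3 UMIs of Mki67, Top2a, Cdk1, Ccnb1 and Birc5. Ass1 stood at 138, 74.6, 114 and 93.1 CPM in cycling tumor-gated cells of irradiated tumors and 102, 104 and 83.5 CPM in those of controls. In the other tumor-gated cells it was at 39.6, 18.9, 48.9 and 45.4 CPM and 33.3, 31.5 and 37.2 CPM. These ranges did not overlap, and the difference was 1.48 ± 0.35 in log2(CPM + 1), higher in 7 of 7 tumors (exact p = 0.0156, adjusted 0.0402). Odc1, whose enzyme is known to rise in growing cells, was 1.32 ± 0.27 higher in 7 of 7 tumors, at 45.3 to 81.0 CPM against 15.2 to 36.8 CPM. Slc7a2 was lower in 7 of 7 tumors (-2.09 ± 0.49), at 1.30 to 4.77 CPM against 11.2 to 25.7 CPM. Arg1 was lower in 7 of 7 too (-0.27 ± 0.06), but at levels under 0.6 CPM. All 4 had an adjusted p of 0.0402. Cycling tumor cells were deeper, at 40585 UMIs per cell against 21155, and the part of depth was not tested.

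Cycling macrophage-gated cells differed in another member. Arg2 was lower in 7 of 7 tumors (-1.22 ± 0.53, exact p = 0.0156, adjusted 0.0402), with means of 3.82 against 9.72 CPM. Ass1 was higher in 6 of 7 (0.57 ± 0.58, adjusted p = 0.125) and did not pass, and Odc1 had a difference of -0.01 ± 0.18. Cycling macrophage-gated cells were deeper too, at 17985.5 UMIs per cell against 7630. The part of depth and of subset make-up was not tested.

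**Figure D5:**
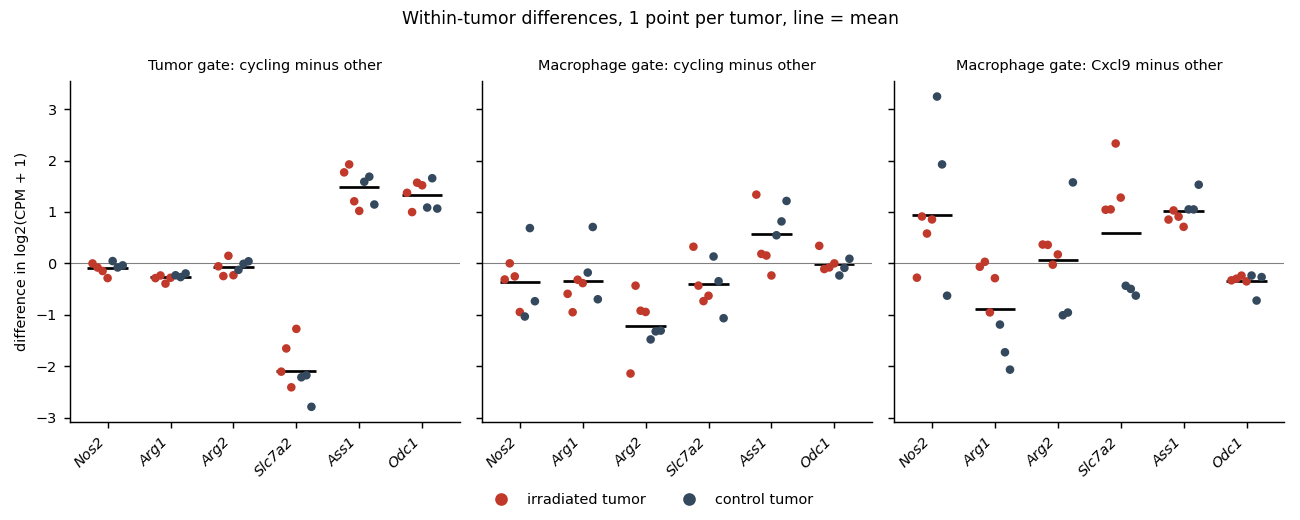
Difference in log2(CPM + 1) on the y axis for each member between cycling and other tumor-gated cells, cycling and other macrophage-gated cells, and Cxcl9-gated and other macrophage-gated cells, 1 point per tumor with a line at the mean. In tumor-gated cells all 7 points lie above 0 for Ass1 and Odc1 and below 0 for Slc7a2.

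Patterns of other genes were compared with Nos2 and Arg1 over 39 sums of tumor and subset, for 8465 genes of at least 10 CPM. The sums share libraries and depth, and the values are a description. The highest Spearman correlations with Arg1 were those of Tgfbi (0.80), Cyba (0.79), Ms4a6d (0.79), Sirpb1c (0.78) and Actb (0.78). With Nos2, which was at 0 in 20 of the 39 sums, they included those of Dennd4b (0.63), Atxn7 (0.59), Tmed8 (0.59) and Slc35f5 (0.59). Arg1 and Nos2 had 0.37 with each other.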

How the data were processed

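Single cells of 4 irradiated and 3 control tumors were profiled with the 10x Genomics 3' assay after papain digestion (45 minutes, 10000 cells loaded). The authors deposited UMI counts per gene and called cell, not normalized, 1 library per tumor. The submitters' processing notes name Cell Ranger, Seurat 4.4 and mm10, the file headers name a later Cell Ranger version than the paper, and coordinates here come only from the RefSeq promoter table. The members and lists were chosen with earlier results of these data known.

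Cells beyond 3 median absolute deviations of the library median in UMIs, genes, mitochondrial or ribosomal share were removed (34296 of 39537 retained). No doublet caller was run, and cells over 2 times the median UMIs were left out as an alternative. UMI counts were summed per tumor and gate. edgeR 4.0.16 (R 4.3.3; filterByExpr, TMM, robust quasi-likelihood, Benjamini-Hochberg, threshold 0.05) was the main test and DESeq2 1.42.0 an alternative, checked on simulated data. CPM is per 1000000 UMIs of the summed gate, and log2 values of single members use log2(CPM + 1). Thinning drew 3000 UMIs per cell with seed 1. Sums needed 20 cells. Total depth was 53496570 to 153044123 UMIs per library, and intervals and limits (3 UMIs for a count of 0) cover counting error only. Named genes are the 6 members, of the pathway list up to the 10 largest folds past the threshold or else the 5 largest, the 5 most alike genes for Nos2 and Arg1, and of each state list the 3 largest differences. Some genes that this rule names are not reported here. Tumors are separate mice, and numbers shared between groups did not pair them.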

Additional observations from a re-analysis of the deposited data

Results flagged for a closer look

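Among 45 groups of 4 irradiated tumors tested by Dixon's ratio, 4 held a value far from the others, where chance gives about 1 in 20. In 2 of these the other 3 tumors were at 0, so that the ratio is 1 for any value and carries no information. Nos2 in the monocyte gate was at 6.83 CPM in irradiated 4, with 240 cells, and at 0 in irradiated 1 to 3, with 23, 65 and 42 cells. Slc7a2 in T/NK-gated cells was at 2.85 CPM in irradiated 2 and at 0 in the other 3. Slc7a2 in tumor-gated cells was lowest in irradiated 4, at 8.20 CPM against 11.0 to 11.2 CPM, and so was Odc1, at 27.8 CPM against 42.4 to 44.8 CPM.

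The difference between cycling and other cells was itself compared between the tumor and the macrophage gate within the 7 tumors (exact sign-flip permutation test, adjusted over 6 members). Odc1 differed by 1.33 ± 0.31 in log2(CPM + 1), tumor minus macrophage gate, in 7 of 7 tumors (exact p = 0.0156, adjusted 0.0313). Slc7a2 differed by -1.69 ± 0.62 in 7 of 7 tumors and Arg2 by 1.15 ± 0.59 in 7 of 7, both with an adjusted p of 0.0313. Ass1 differed by 0.90 ± 0.58 in 6 of 7 tumors (exact p = 0.0313, adjusted 0.0469). Arg2 stood under 0.7 CPM in tumor-gated cells, so its difference rests on the macrophage gate. Cycling cells were deeper than other cells in both gates, and the part of depth was not tested.

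Nos2 was also found outside the macrophage gate. The 794 cells of no gate with at least 3 UMIs of the endothelial markers Pecam1, Cdh5, Kdr, Cldn5 and Egfl7 held 96 Nos2 UMIs in 57 cells (7.18%), and 20 of 695 (2.88%) after thinning to 3000 UMIs. Nos2 stood there at 8.50, 0.520, 8.19 and 5.92 CPM in irradiated tumors and 0.533, 5.29 and 9.88 CPM in controls. It was higher than in the macrophage gate by 1.50 ± 1.42 in log2(CPM + 1) in 5 of 7 tumors (exact p = 0.0625, adjusted over 4 comparisons 0.0625), which did not pass. It was higher than in the tumor gate by 2.31 ± 1.22 in 7 of 7 tumors (exact p = 0.0156, adjusted 0.0417). Levels of all 6 members were read in the cells of no gate. Only Nos2 here and Slc7a2 in cells with pericyte markers were tested. The adjustment covers those 4 comparisons and does not count the choice of them. The 2 exceptions, irradiated 2 and control 1, had the deepest such cells (median 44663 and 48089 UMIs) and the least Pecam1 (122 and 108 CPM).

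Slc7a2 was high in cells with pericyte markers (Rgs5, Kcnj8 and Abcc9). In 6 tumors 95 of 210 such cells (45.2%) had a UMI, and 25.0% after thinning. It was higher than in the macrophage gate by 3.96 ± 1.20 in 6 of 6 tumors (exact p = 0.0313, adjusted 0.0417). It was higher than in the tumor gate by 3.08 ± 0.96 in 6 of 6 (adjusted p = 0.0417). The lowest p that 6 tumors allow is 0.0313, and the adjustment again does not count the choice of this gene and these cells.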

How the results depend on the processing

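In all, 523 alternatives were computed for 53 results, and 505 were classed as the same. For a test this means the same direction and side of the threshold. Results with no test of their own, such as the number of genes called, were judged by closeness to the main value. In the macrophage gate DESeq2 called 3 genes where edgeR called 0. The difference in the share of cells with both Nos2 and Arg1 turned to -0.0076 percentage points without the cell filter and with a new thinning draw. Members that did not pass in either case changed sign. Arg2 in the macrophage gate came to -0.0022 without control 1 (range over left-out tumors -0.0022 to 0.51). Odc1 there came to -0.39 with the replicate block, -0.61 with the technical set as a term and -0.0195 without cells over 2 times the median UMIs, and left-out tumors gave -0.14 to 0.46, below 0 without irradiated 2 (-0.08), irradiated 4 (-0.14) and control 2 (-0.07). In the tumor gate Ass1 ran from -0.0179 (without irradiated 1) to 0.26 and Odc1 from -0.45 to 0.0165 (without control 3). Cause was not tested for any of these. The other calls that moved are given with their results, and Arg1 in the Acp5 Atp6v0d2 gate also passed, at -1.15, when every gene with at least 1 UMI was kept. Same-numbered tumors of the 2 groups did not deviate together (correlations -0.28, -0.12 and -0.02 in the macrophage gate and -0.42, -0.04 and 0.11 in the tumor gate), and the replicate block called 0 genes in both gates (edgeR; 272 and 125 genes at an unadjusted p under 0.05). For Nos2, 3 to 45 UMIs per tumor limited every comparison.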

Other observations

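Members were also found in the other cells of no gate. The 90 cells with keratinocyte markers (Krt5, Krt14 and Epcam) held Slc7a2 at 3.20, 78.1, 126 and 601 CPM in irradiated tumors and 0, 143 and 0 CPM in controls, from 4 to 25 cells per tumor. Arg2 in these cells was at 0, 40.8, 29.9 and 55.4 CPM and at 0, 97.0 and 0 CPM, where the value of irradiated 2 came from 1 cell. Other values given here are pooled over tumors. Cells with endothelial markers held Ass1 at 135 CPM and Odc1 at 69.9 CPM, and Arg1 at 0.328 CPM, near its tumor-gate level. Cells with pericyte markers held 0 Nos2 UMIs in 224 cells and Ass1 at 20.8 CPM. Among 654 cells with a myeloid score of 30 or over that fell to no gate because of lymphoid, dendritic or granulocyte markers, Arg1 was at 38.0 CPM and Nos2 at 0.214 CPM, from 2 UMIs.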
